A study of Mus musculus with 8 samples.

Results

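Interferon-stimulated genes were examined as a list of 42 gene symbols, 31 induced mainly by type I interferon and 11 GTPases induced mainly by IFN-γ. The list was taken by symbol from the 18533 gene symbols of each sample, and 40 of the 42 had a row (29 of the 31 type I genes and 11 of the 11 GTPases). Mx1 and Mx2 were not analysed here. The samples were mouse aortic smooth muscle cells (MASMCs), primary cells grown from the aortas of male mice 4 to 6 weeks old, from WT mice (n = 4) and from Hint1-/- mice (n = 4), which carry the deletion in every tissue rather than in smooth muscle alone. Per the study's methods, adventitia and endothelium were stripped before the aorta was digested with collagenase, and the strain of the Hint1-/- mice was not stated. Both groups were exposed to PDGF-BB, a growth factor that moves smooth muscle cells away from the contractile state, at 20 ng/ml for 24 hours. No sample was untreated and the labels name no interferon treatment, so the comparison shows only how the 2 genotypes differed under PDGF-BB.

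Type I interferons, which include IFN-α and IFN-β, bind the IFNAR1-IFNAR2 receptor and activate the kinases JAK1 and TYK2. These phosphorylate STAT proteins, which join IRF9 in the complex ISGF3 and bind the interferon-stimulated response element (ISRE) of antiviral genes such as the IFIT and OAS families and Isg15. IFN-γ acts through IFNGR1-IFNGR2, JAK1 and JAK2, and STAT dimers that bind the gamma-activated site (GAS), and it induces the immunity-related GTPases (IRGs) and guanylate-binding proteins (GBPs) that attack membranes around intracellular pathogens. Many of the genes answer to both interferons, and vascular smooth muscle is known to respond to IFN-γ.

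The libraries held 20778077 to 20888041 estimated counts each. Hint1, the deleted gene, had 2272 to 2364 counts in WT and 713 to 778 in Hint1-/- samples, or 32.1% of the WT level, with no overlap between the groups. The statistic for pairs of libraries, a chi-square per gene that is near 1 when 2 libraries differ by counting noise alone, lay between 2.10 and 5.47 within a genotype and between 11.8 and 17.2 between genotypes. Among the smooth muscle markers, Acta2 had 15956 to 17855 counts in WT and 11640 to 12331 in Hint1-/- samples. Myh11, a marker of mature contractile cells, had 406 to 456 in WT and 136 to 152 in Hint1-/- samples. Macrophage markers were also abundant in every sample, with Lyz2 at 19497 to 27662 counts. In these bulk samples fewer cells of a type and less RNA per cell cannot be told apart.

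The promoter sequences of the members were examined first, because the ISRE and GAS are the sites through which interferons are known to act. RefSeq (GRCm38.p6, the assembly of mm10) gave a promoter window of 300 bases, from 250 before to 50 after the start, for 32 of the 42 members. The ISRE core was searched as GAAANNGAA on both strands. It was found in 22 of the 32 members, in 13 of 23 type I genes and in 9 of 9 GTPases, against 9.76% of all 27025 genes with a window. The GAS, searched as TTCNNNGAA, which reads the same on both strands, was found in 12 of the 32 members (6 of 23 type I genes and 6 of 9 GTPases), against 9.55% of all genes. A GAS followed 2 bases later by an ISRE core was present in 8 of the 27025 genes, and 4 of these were the members Tgtp1, Tgtp2, Igtp and Irgm2. All 4 are IRGs with similar letters around the sites, and Igtp and Irgm2 read the same in the stretch shown before the GAS. They therefore do not count as 4 independent occurrences. Both sites at other spacings were found in the windows of Oas1a and Gbp5, which were lower, and of Bst2, Eif2ak2 and Gbp7, which were not called. The 4 stretches with the sites 2 bases apart are shown because the GTPases that carry them lie within 10 Mb of Hint1 and were lower in Hint1-/- MASMCs. Capitals mark the GAS and then the ISRE core, and each line is written 5′ to 3′ on the gene's own strand.
Tgtp1, chr11:48992295-48992364, minus strand: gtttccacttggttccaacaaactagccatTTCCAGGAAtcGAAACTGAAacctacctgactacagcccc
Tgtp2, chr11:49064254-49064323, minus strand: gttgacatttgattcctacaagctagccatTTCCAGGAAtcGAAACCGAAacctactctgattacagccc
Igtp, chr11:58199481-58199550, plus strand: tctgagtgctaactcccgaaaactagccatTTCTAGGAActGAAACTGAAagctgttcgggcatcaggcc
Irgm2, chr11:58214872-58214941, plus strand: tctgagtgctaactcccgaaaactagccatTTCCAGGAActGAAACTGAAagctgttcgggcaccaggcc

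Type I genes held ISRE cores that stood alone or ran into each other. The 4 windows below are shown because Ifit1, Ifit3, Isg15 and Oas3 were among the members lower in Hint1-/- MASMCs, and capitals mark every match to the ISRE core on either strand.
Ifit1, chr19:34640750-34640833, plus strand: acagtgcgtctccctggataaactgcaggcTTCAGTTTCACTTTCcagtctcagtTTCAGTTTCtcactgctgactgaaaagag
Ifit3, chr19:34583344-34583455, plus strand: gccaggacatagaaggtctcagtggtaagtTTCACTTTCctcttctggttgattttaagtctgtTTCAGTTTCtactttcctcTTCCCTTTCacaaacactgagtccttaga
Isg15, chr4:156200856-156200926, minus strand: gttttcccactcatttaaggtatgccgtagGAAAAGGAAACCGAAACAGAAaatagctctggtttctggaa
Oas3, chr5:120777700-120777764, minus strand: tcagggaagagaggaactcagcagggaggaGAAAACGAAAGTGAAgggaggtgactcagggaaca
A match is a description of these letters. Of the 22 members with an ISRE core in the window, 14 were called lower in Hint1-/- MASMCs, and of the 10 members whose window held none, 6 were called lower. The cutoff for a call is given in the next paragraph. By the same cutoff 10.2% of all genes tested were lower, and 13.2% of those averaging at least 1000 counts.

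The interferon-stimulated genes were lower in Hint1-/- than in WT MASMCs, by small amounts. All 40 members with a row passed the filter on low counts, and of these 25 fell and 0 rose at an adjusted p under 0.05 (edgeR's quasi-likelihood test, Benjamini-Hochberg adjustment over 13535 genes), and 15 were not called. Among all genes tested, 10.2% were called lower and 11.2% were called higher. Because the members are abundant, genes averaging at least 1000 counts are a closer background, and 13.2% of these were called lower. The log2 fold change was below 0 for all 40 members, with a median of −0.15 and a range from −1.05 to −0.01, beside a median of 0.0003 over all genes tested. Only 1 member, Tgtp1, passed a fold change of 1.5, a limit that 2.83% of all genes tested passed in either direction. Of the 29 type I genes 18 fell (median −0.15), and of the 11 GTPases 7 fell (median −0.16, or −0.0974 without WT replicate 2). The CPM values of the genotypes did not overlap for 18 of the 40 members, lower in Hint1-/- for each. This was so for 11.0% of all genes tested and for 13.9% of those averaging at least 1000 counts.

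**Figure D1:**
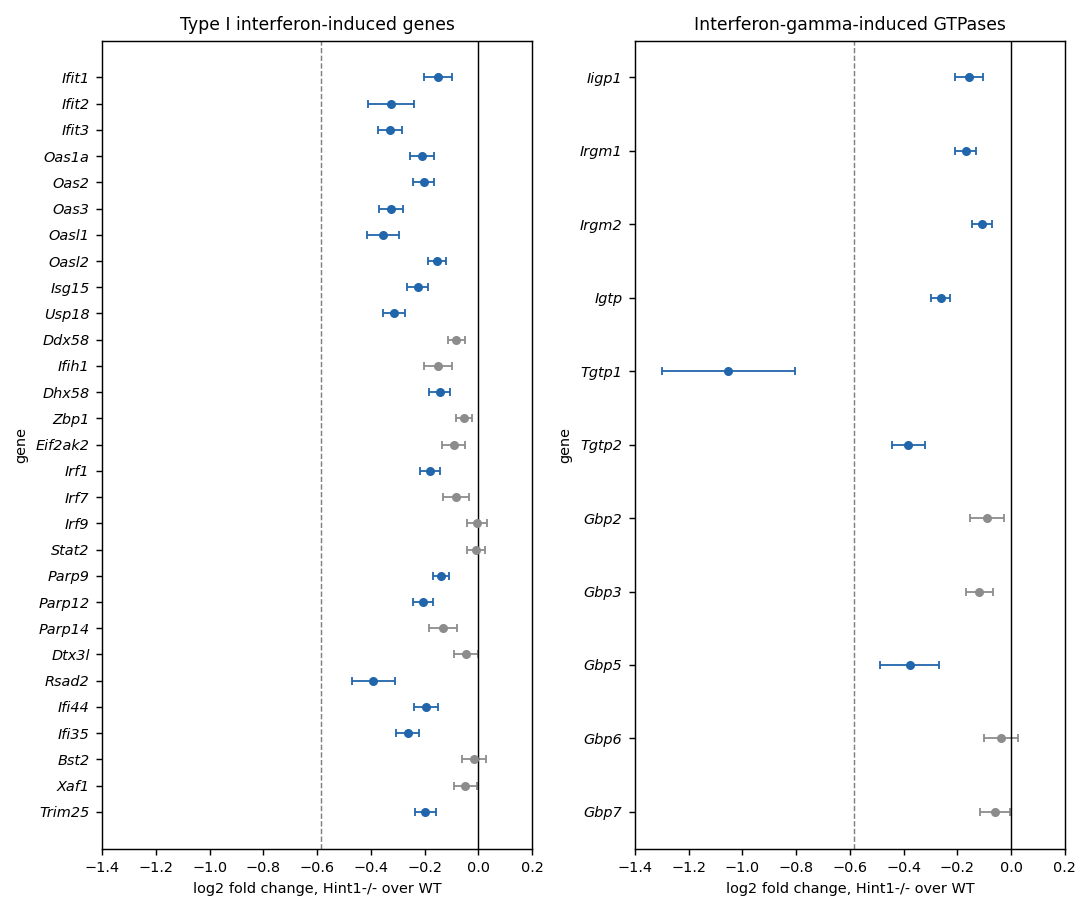
Fitted log2 fold change of Hint1-/- over WT MASMCs (x axis) for the 29 type I interferon-induced genes (left) and the 11 IFN-γ-induced GTPases (right) with a row. Points are fitted values, bars are 1 SE, blue points had an adjusted p under 0.05, gray points did not, and the dashed line marks a fold change of 1.5. All 40 points lie left of 0 and Tgtp1 alone lies left of the dashed line.

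**Figure D2:**
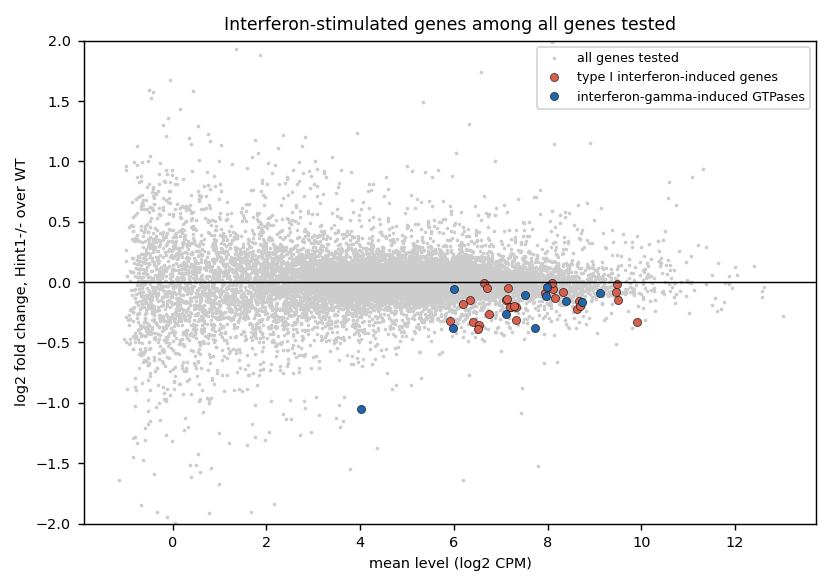
Log2 fold change of Hint1-/- over WT MASMCs (y axis) against the mean level in log2 CPM (x axis) for the 13535 genes tested (gray), with type I interferon-induced genes in red and IFN-γ-induced GTPases in blue. The axis stops at a log2 fold change of 2 in either direction, which leaves 27 genes outside. All 40 members lie below 0, and most lie in the upper part of the range of levels, with Tgtp1 the lowest.

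The members were highly expressed in both genotypes. Per kilobase of exon, their median level was 45.7 RPKM over all samples, against 5.71 RPKM over the 13125 tested genes with a known length, and 22 of the 40 lay in the top decile. Bst2, the membrane protein tetherin that holds budding virions at the cell surface, stood highest at 800.4 RPKM in WT and 791 RPKM in Hint1-/- MASMCs. Ifit3 (617 and 491 RPKM) and Isg15 (562 and 480 RPKM) came next. The lowest member on this scale was Tgtp1, at 6.77 RPKM in WT and 3.26 RPKM in Hint1-/- MASMCs.

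The WT replicates were spread more widely than the Hint1-/- replicates. WT replicate 4 had the lowest CPM of the 4 WT samples for 36 of the 40 members, and WT replicate 2 had the highest for 33. The median log2 difference of the 40 members from their WT mean was 0.02, 0.09, −0.01 and −0.13 in WT replicates 1 to 4, and −0.19, −0.12, −0.16 and −0.16 in Hint1-/- replicates 1 to 4. Over all 40 members WT replicate 4 thus lay within the Hint1-/- range, near its upper end. Over the GTPases alone it was also within that range (−0.198, against −0.201 to −0.110). Over the type I genes it stayed above every Hint1-/- sample (−0.109, against −0.187 to −0.137). The SD of log2 CPM between replicates was larger in WT for 36 of the 40 members, and its median was 0.101 for WT and 0.0554 for Hint1-/- MASMCs. Over genes averaging at least 1000 counts these medians were 0.0495 and 0.0470, and 54.6% had the larger SD in WT. All 11 GTPases had the larger SD in WT (medians 0.144 and 0.0758), as did 25 of the 29 type I genes (0.0788 and 0.0543). Without WT replicates 2 and 4, a choice made after the data were seen, 20 type I genes and 9 GTPases were called lower and 0 members higher. Without WT replicate 4 alone the counts were 22 and 9, and without WT replicate 2 alone the count for GTPases fell to 4.

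**Figure D3:**
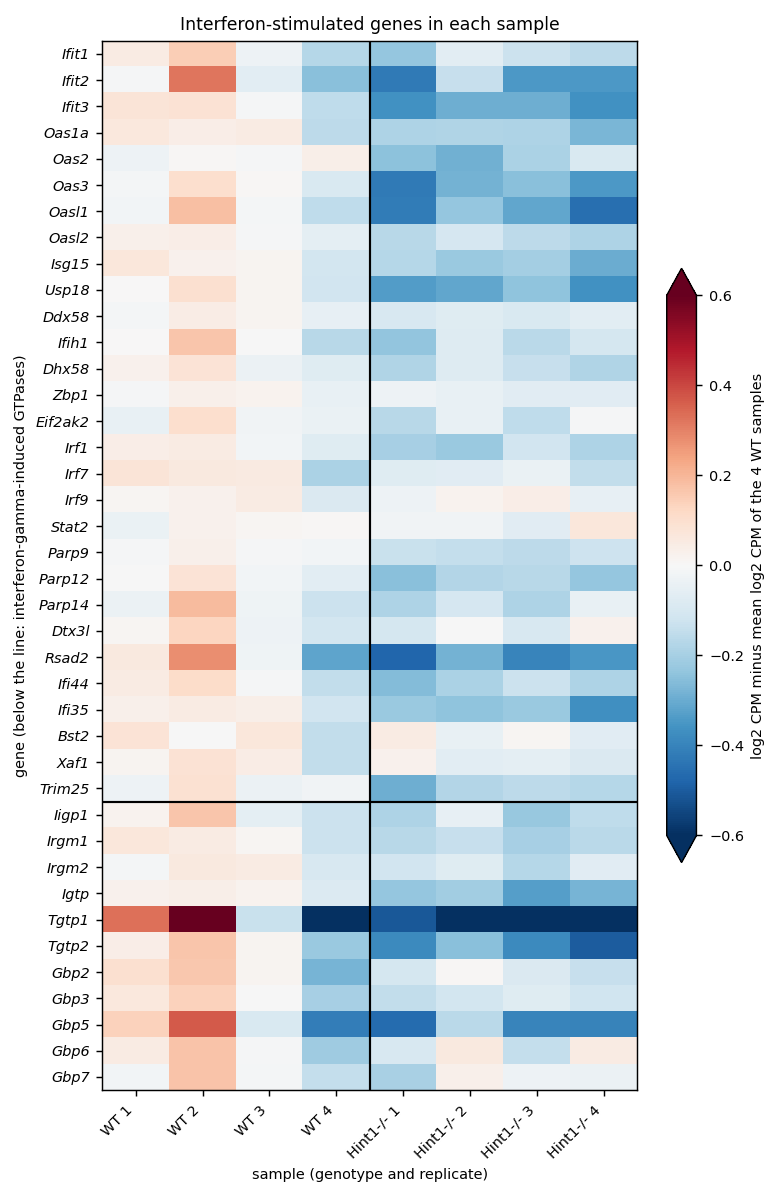
Each row is 1 of the 40 members and each column 1 sample. The color is the log2 CPM minus the mean log2 CPM of the 4 WT samples, on a scale that ends at 0.6 in either direction, so the deepest colors of Tgtp1 lie beyond it. WT replicate 2 is the reddest column, WT replicate 4 is blue in most rows, and the 4 Hint1-/- columns are blue in nearly every row.

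Among the IFIT proteins, IFIT1 binds viral RNA whose 5′ end lacks the host's cap methylation and blocks its translation. All 3 members of the IFIT family fell. Ifit3 (chr19:34583531-34588731), the most abundant member in counts, had 23617, 23909, 22324 and 20185 estimated counts in WT replicates 1 to 4 and 17329, 18165, 18266 and 17351 in Hint1-/- replicates 1 to 4. The highest Hint1-/- sample was below the lowest WT sample, and the means were 857 ± 24.4 CPM and 1077 ± 79.9 CPM (SD, n = 4 each). The log2 fold change was −0.33, with an SE of 0.044 and an adjusted p of 2.1e-05 in edgeR's quasi-likelihood test. Ifit2 had 1384, 1752, 1334 and 1172 counts in WT and 1031, 1256, 1092 and 1090 in Hint1-/- samples (log2 fold change −0.32, SE 0.086, adjusted p = 0.010 by the same test). The groups overlapped, because WT replicate 4 lay below Hint1-/- replicate 2. Ifit1, the founding member of the family, had 16294, 17582, 15480 and 14024 counts in WT and 13343, 14936, 14349 and 14064 in Hint1-/- samples, a log2 fold change of −0.15 (SE 0.052) with an adjusted p of 0.046 in edgeR's test. WT replicate 4 fell among the Hint1-/- samples, and the adjusted p for Ifit1 was above 0.05 under 8 of the 17 other settings tried. Ifit3 has a near-identical neighbor, Ifit3b, between which reads may be divided. Their sum changed by −0.35 on the log2 scale (SE 0.048, adjusted p = 2.6e-05 by edgeR).

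The OAS proteins sense double-stranded RNA, and the active enzymes make 2′-5′-linked oligoadenylates that switch on RNase L. All 5 members fell and in all 5 the genotypes did not overlap. Oasl1, which lacks oligoadenylate synthetase activity in mice, changed most, with 2120, 2453, 2134 and 1936 counts in WT and 1597, 1817, 1727 and 1562 in Hint1-/- samples (log2 fold change −0.36, SE 0.058, adjusted p = 0.00020 by edgeR). Oas3, the largest of the enzymes, had 1955, 2123, 1982 and 1848 counts in WT and 1460, 1605, 1652 and 1542 in Hint1-/- samples (log2 fold change −0.33, SE 0.044, adjusted p = 2.5e-05 by edgeR). For both genes the lowest WT sample was replicate 4, and it still exceeded the highest Hint1-/- sample. The remaining enzymes moved by smaller amounts. Oas1a had 3727, 3694, 3700 and 3205 counts in WT and 3114, 3119, 3125 and 2936 in Hint1-/- samples, a log2 fold change of −0.21, which was also −0.21 for the sum with its near-identical neighbor Oas1g. Oas2 had 3236, 3340, 3297 and 3391 counts in WT and 2769, 2690, 2890 and 3086 in Hint1-/- samples, a log2 fold change of −0.20. In contrast to most members, Oas2 was highest in WT replicate 4. Oasl2, the active synthetase of the OAS-like pair, had 9129, 9259, 8922 and 8594 counts in WT and 7918, 8290, 7996 and 7836 in Hint1-/- samples, a log2 fold change of −0.15.

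Isg15 encodes a ubiquitin-like protein that is attached to other proteins, and Usp18 encodes the protease that removes it and also dampens signaling at IFNAR2. Both fell and neither overlapped between genotypes. Usp18 (chr6:121245906-121270917) had 3713, 3990, 3759 and 3434 counts in WT and 2919, 2966, 3132 and 2875 in Hint1-/- samples, or 178 ± 10.5 against 143 ± 5.25 CPM (SD, n = 4 each). Its log2 fold change of −0.31 (SE 0.041) had the smallest adjusted p of all members (1.8e-05, edgeR's quasi-likelihood test). Isg15 had 9273, 9062, 8971 and 8213 counts in WT and 7816, 7512, 7653 and 7159 in Hint1-/- samples (log2 fold change −0.23, SE 0.039, adjusted p = 0.00034 by edgeR). The Hint1-/- samples thus held 85.5% of the WT level of Isg15 and 80.5% of that of Usp18.

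Of the 5 nucleic acid sensors, 1 fell. Dhx58 encodes LGP2, a helicase that tunes the RNA sensors RIG-I and MDA5, and had 1798, 1883, 1727 and 1680 counts in WT and 1551, 1660, 1601 and 1550 in Hint1-/- samples. The groups did not overlap, although the gap between WT replicate 4 and Hint1-/- replicate 2 was small (log2 fold change −0.14, SE 0.040, adjusted p = 0.013 by edgeR). Ddx58, which encodes RIG-I, had 6660 to 7164 counts in WT and 6402 to 6557 in Hint1-/- samples, a log2 fold change of −0.08 with an adjusted p of 0.073 in edgeR's test despite groups that did not overlap. Ifih1, which encodes MDA5, missed the threshold narrowly, at a log2 fold change of −0.15 and an adjusted p of 0.0503 in the same test. The log2 fold changes of Eif2ak2, the kinase PKR that halts translation on double-stranded RNA, and Zbp1, a Z-form nucleic acid sensor that triggers cell death, were −0.09 and −0.05, and neither was called.

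Among the 4 transcription factors, Irf1 fell and Stat2, Irf9 and Irf7 were not called. Irf1 (chr11:53770014-53778374), which drives many IFN-γ targets, had 1661, 1684, 1602 and 1535 counts in WT and 1397, 1375, 1486 and 1416 in Hint1-/- samples. The lowest WT sample exceeded the highest Hint1-/- sample, and the fitted change was −0.18 on the log2 scale (SE 0.038, adjusted p = 0.0019 by edgeR). Stat2 had 5513 to 5820 counts in WT and 5396 to 5919 in Hint1-/- samples, and Irf9 had 1973 to 2168 and 2015 to 2142. Both had log2 fold changes of −0.01, with SEs of 0.034 and 0.037, and the sign of each turned positive when single samples were left out. Irf7, which amplifies type I interferon production, had 13280 to 15981 counts in WT and 13624 to 14703 in Hint1-/- samples, a log2 fold change of −0.08 (SE 0.048) that was not called.

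Of the PARP enzymes and DTX3L, an E3 ligase that forms a complex with PARP9, 2 of 4 fell. Parp12, a mono-ADP-ribosyltransferase with antiviral activity, had 3258, 3481, 3236 and 3121 counts in WT and 2725, 2866, 2901 and 2766 in Hint1-/- samples (log2 fold change −0.21, SE 0.037, adjusted p = 0.00041 by edgeR). Parp9 had 3062, 3165, 3073 and 3053 counts in WT and 2791, 2768, 2755 and 2816 in Hint1-/- samples (log2 fold change −0.14, SE 0.030, adjusted p = 0.0026 by edgeR). In both genes the genotypes were separate, and Parp9 was tight within each group. Parp14 and Dtx3l overlapped between genotypes and were not called, at log2 fold changes of −0.13 and −0.05. Parp9 and Dtx3l overlap on opposite strands at chromosome 16, and whether the counting used strand was not given in the sources used here, so their reads may not be fully separate.

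Of the 6 other effectors, 4 fell. Rsad2, the enzyme viperin that makes a chain-terminating nucleotide, had 2222, 2607, 2101 and 1716 counts in WT and 1522, 1739, 1616 and 1665 in Hint1-/- samples (log2 fold change −0.39, SE 0.081, adjusted p = 0.0017 by edgeR), the largest change among type I genes. WT replicate 4 lay below Hint1-/- replicate 2, so the groups overlapped. Ifi35 had 2481, 2522, 2497 and 2239 counts in WT and 2069, 2036, 2073 and 1873 in Hint1-/- samples (log2 fold change −0.26, SE 0.043, adjusted p = 0.00016 by edgeR). Trim25, the ubiquitin ligase known for acting on RIG-I, had 3398, 3722, 3406 and 3425 counts in WT and 2823, 3058, 3114 and 3074 in Hint1-/- samples, a log2 fold change of −0.20. Neither Ifi35 nor Trim25 overlapped between genotypes. Ifi44 had 9414, 9887, 9085 and 8238 counts in WT and 7558, 7922, 8312 and 7969 in Hint1-/- samples, a log2 fold change of −0.19, with WT replicate 4 below Hint1-/- replicate 3. Bst2 had 13572 to 15934 counts in WT and 14265 to 15464 in Hint1-/- samples, and Xaf1, a proapoptotic antagonist of XIAP, had 2740 to 3245 and 2844 to 3069. Neither was called, at log2 fold changes of −0.02 and −0.05.

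All 6 IRGs fell. Igtp (chr11:58199556-58207591), which encodes Irgm3, had 3186, 3232, 3182 and 2964 counts in WT and 2654, 2685, 2483 and 2569 in Hint1-/- samples, or 150.3 ± 5.54 against 125 ± 4.64 CPM (SD, n = 4 each). The groups were apart (log2 fold change −0.26, SE 0.037, adjusted p = 3.6e-05 by edgeR). Irgm1, a regulator that keeps the effector IRGs inactive on host membranes, had 9770, 9702, 9435 and 8518 counts in WT and 8267, 8392, 8086 and 8299 in Hint1-/- samples, a log2 fold change of −0.17 (SE 0.039) with no overlap. Irgm2, a regulator of the same kind, had 3901, 4130, 4085 and 3688 counts in WT and 3610, 3716, 3483 and 3734 in Hint1-/- samples, a log2 fold change of −0.11 (SE 0.038). Irgm2 stood at the threshold (adjusted p = 0.0497 by edgeR), overlapped between genotypes, and was not called under 8 of the 17 other settings. The annotated spans of Igtp and Irgm2 overlap on the same strand, so reads may be divided between them. The effector IRG Iigp1 had 7410, 8260, 7051 and 6686 counts in WT and 6383, 7012, 6237 and 6555 in Hint1-/- samples (log2 fold change −0.16, SE 0.052, adjusted p = 0.037 by edgeR). WT replicate 4 lay within the Hint1-/- range, and 5 of the 17 other settings, each of them leaving out 1 sample, lost the call for Iigp1.

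Tgtp1 and Tgtp2 encode near-identical copies of the effector IRG Irgb6. Tgtp1 (chr11:48985327-48994172) had 516, 718, 375 and 207 counts in WT and 287, 214, 189 and 178 in Hint1-/- samples. The WT samples ranged over more than 3-fold, and WT replicate 4 lay below Hint1-/- replicates 1 and 2, so the groups overlapped (log2 fold change −1.05, SE 0.25, adjusted p = 0.0046 by edgeR). Tgtp2 (chr11:49057194-49064206) had 5156, 5670, 5081 and 4293 counts in WT and 3826, 4184, 3836 and 3531 in Hint1-/- samples, with no overlap (log2 fold change −0.38, SE 0.062, adjusted p = 0.00018 by edgeR). The share of the counts of both genes that was given to Tgtp1 varied between samples, at 9.10%, 11.2%, 6.87% and 4.6% in WT replicates 1 to 4 and 6.98%, 4.87%, 4.70% and 4.80% in Hint1-/- replicates 1 to 4. Since the estimate divides shared reads between the copies, the sum is the firmer value. It was 5672, 6388, 5456 and 4500 counts in WT and 4113, 4398, 4025 and 3709 in Hint1-/- samples, again without overlap (log2 fold change −0.43, SE 0.072, adjusted p = 0.00026 by edgeR). With the copies summed, 39 members remained, of which 0 passed a fold change of 1.5 and 0 lost their call.

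Of the 5 GBPs, large GTPases that coat and lyse pathogen vacuoles and feed the inflammasome, 1 fell and none was separate between genotypes. Gbp5 had 1612, 1904, 1378 and 1099 counts in WT and 1059, 1301, 1110 and 1106 in Hint1-/- samples (log2 fold change −0.38, SE 0.11, adjusted p = 0.018 by edgeR). WT replicate 4 was below 3 of the Hint1-/- samples, and Gbp5 lost its call under 6 of the 17 other settings. Gbp2, the most abundant GBP, had 9804 to 13372 counts in WT and 10721 to 11819 in Hint1-/- samples, a log2 fold change of −0.09 (SE 0.064). The log2 fold changes of Gbp3, Gbp7 and Gbp6 were −0.12, −0.06 and −0.04, none of them called. For Gbp2, Gbp3 and Gbp6 the lowest of all 8 samples was WT replicate 4.

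Summed over members, the type I genes reached 7481 to 8583 CPM in WT and 7184 to 7398 CPM in Hint1-/- samples, which did not overlap. The GTPases reached 2289 to 2884 CPM in WT and 2299 to 2472 CPM in Hint1-/- samples, which overlapped through WT replicate 4. Markers of macrophages moved with the genotype as well. Of 12 listed, 11 were tested, 9 fell, and Itgam and C1qb were not called. For this and the other marker lists the background is all genes tested, of which 10.2% were called lower and 11.2% higher. Cd68 fell by 0.44, Csf1r by 0.38 and Adgre1 by 0.37 on the log2 scale. Their summed level was 2707 to 3093 CPM in WT and 2216 to 2377 CPM in Hint1-/- samples, without overlap, whereas the complement genes C1qa and C1qb, made by many tissue macrophages, had at most 33 counts in any sample. Within WT the sums ran apart, since replicate 4 was the highest for macrophage markers (3093 CPM) and the lowest for both groups of interferon-stimulated genes. Lyz2 alone gave 1325 of those 3093 CPM. Adgre1, Csf1r, Cd68, Lyz2, Fcer1g, Tyrobp and Cd14 were highest of the 4 WT samples in replicate 4. Ptprc, Fcgr1 and Itgam were highest in WT replicate 2, and Fcgr1 was lowest in WT replicate 4 (38.6 CPM). The part of macrophage-marked RNA in the lower levels of interferon-stimulated genes was not tested. Of 8 smooth muscle markers 6 fell, 1 (Smtn) rose by 0.25 on the log2 scale and 1 (Tagln) was not called, with 1540 to 1688 CPM summed in WT and 1290 to 1380 CPM in Hint1-/- samples. Fibroblast markers were mixed, 3 higher and 3 lower of 7, at 7889 to 8728 and 8078 to 8683 CPM. T or NK cell markers summed to at most 0.967 CPM, dendritic cell markers to at most 3.12 CPM and endothelial markers to at most 9.75 CPM in any sample. Of 9 T or NK cell markers 5 had a row and 1 was tested. Of 7 dendritic cell markers 6 had a row and 2 were tested, and of 8 endothelial markers 6 were tested. None of those tested was called, and the others were too low to test or had no row. Among markers of T and NK cells, the main makers of IFN-γ, Cd3e and Klrb1c were at 0 or 1 count and Cd3d at 0 to 2 counts in every sample, and Cd8a had 9 to 17.

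**Figure D4:**
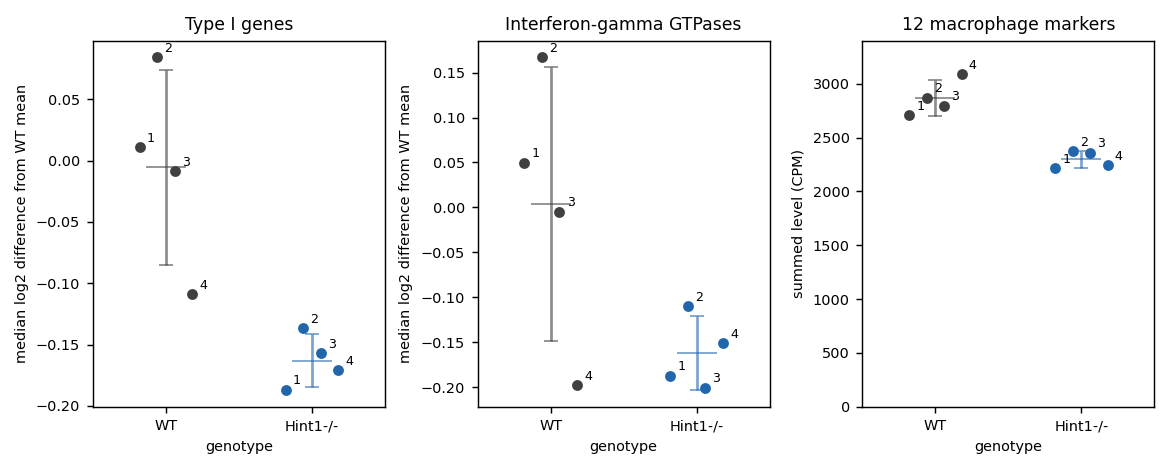
Points are samples, numbered by replicate, with horizontal and vertical bars for the mean and SD of each genotype (n = 4). The y axes give the median log2 difference from the WT mean over the type I genes (left) and the GTPases (middle), and the summed CPM of 12 macrophage markers (right). WT replicate 4 is the lowest WT sample in the left and middle panels, where it reaches the Hint1-/- level for the GTPases, and the highest sample in the right panel.

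The position of the members relative to the deleted gene was also examined. Of the 40, 10 lie on chromosome 11, the chromosome of Hint1, and 9 of these were lower. The 6 within 10 Mb of Hint1 (Irf1, Irgm1, Irgm2, Igtp, Tgtp1 and Tgtp2) were lower in 6 of 6 cases, against 15.6% called lower among all 179 genes tested in that window. Elsewhere 19 of 34 were lower. A segment around the deleted gene can come from the strain in which the deletion was made, and strain and genotype cannot be told apart at these 6 genes.

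The rest of the pathway was described with lists of 131 genes in all, of which 104 were tested, 8 rose and 35 fell. Of all genes tested, 11.2% were called higher and 10.2% lower. Among 21 ligands, 8 had a row and Ifnz alone was tested and was not called. Ifnb1, which encodes IFN-β, had 2, 9, 3 and 7 counts in WT and 9, 5, 4 and 9 in Hint1-/- samples, too few to test and overlapping. Of 9 receptors and kinases, 4 rose and 5 were not called, beside 11.2% of all genes tested called higher. Jak2 had 3180, 3338, 3221 and 3092 counts in WT and 3899, 4045, 3950 and 4102 in Hint1-/- samples (log2 fold change 0.33, SE 0.033, adjusted p = 7.0e-07 by edgeR). The receptor chains Ifnar2, Ifnar1 and Ifngr1 rose by 0.23, 0.14 and 0.11 on the log2 scale, all without overlap, while Ifngr2 stood at −0.02 and was not called. Of all genes tested, 11.9% were higher in Hint1-/- samples without overlap.

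Upstream of interferon, 3 of 15 tested sensing genes fell, where 10.2% of all genes tested did, and 2 rose, a share near the 11.2% of all genes called higher. The endosomal RNA receptor Tlr7, with 1093 to 1334 counts in WT and 921 to 1013 in Hint1-/- samples, and the factor Irf5, with 956 to 1000 and 775 to 807, fell by 0.32 and 0.31 on the log2 scale. The adaptor Myd88 fell by 0.19. The kinase Ikbke rose by 0.20 and the adaptor Traf3 by 0.12. Of 8 inhibitors, Socs3, which blocks JAK kinases, rose by 0.16, and 7, Socs1 among them, were not called, a share near the 11.2% of all genes called higher.

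**Figure D5:**
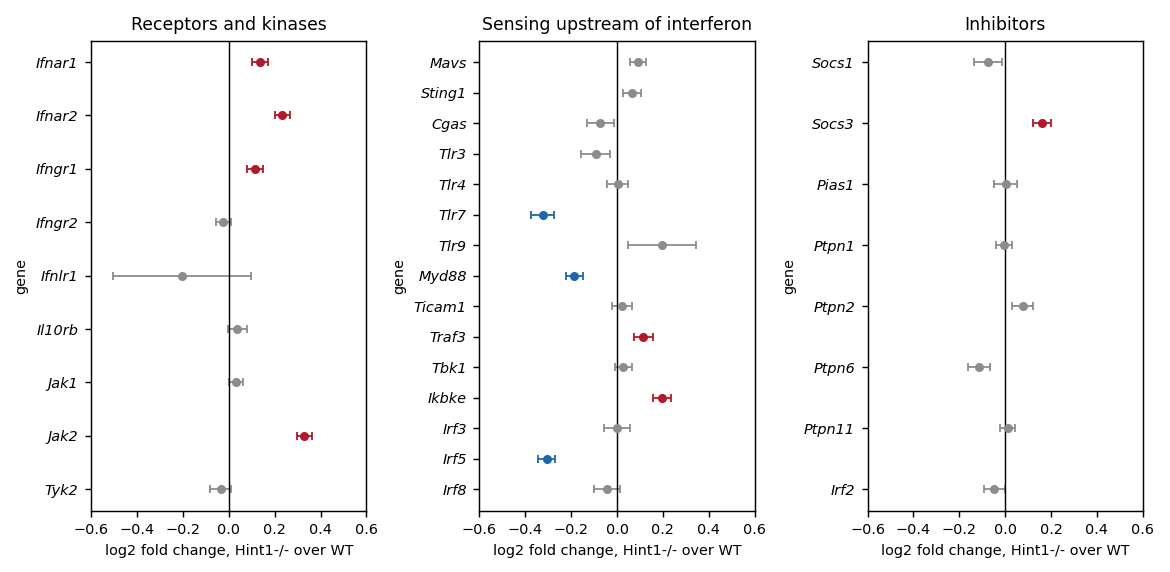
Fitted log2 fold change of Hint1-/- over WT MASMCs (x axis) for receptors and kinases (left), sensing genes upstream of interferon (middle) and inhibitors (right). Bars are 1 SE, red points were called higher, blue points lower, and gray points were not called. Jak2 and Ifnar2 lie farthest to the right of 0 in the left panel, and Tlr7 and Irf5 lie farthest to the left of 0 in the middle panel.

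A further 71 interferon-induced genes outside the 42 were tested, and 32 (45.1%) fell while 1, Apol9b, rose. Of all genes tested, 10.2% were called lower and 11.2% higher. Their median log2 fold change was −0.13. Cxcl10, a chemokine that draws T cells, changed most and alone passed a fold change of 1.5, with 5254, 6008, 4494 and 3337 counts in WT and 2350, 2982, 2734 and 2224 in Hint1-/- samples. Although WT replicate 4 was far below the other WT samples, it exceeded every Hint1-/- sample (log2 fold change −0.88, SE 0.12, adjusted p = 3.2e-05 by edgeR). Cmpk2, a nucleotide kinase that neighbors Rsad2, fell by 0.49, with 1597 to 2332 counts in WT and 1239 to 1568 in Hint1-/- samples. Epsti1 fell by 0.48, the IRG gene Gm12250 by 0.44 and Ifit3b by 0.43 on the log2 scale, each without overlap between genotypes.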

How the data were processed

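RNA-Seq of MASMCs was analysed in 4 WT and 4 Hint1-/- samples, grouped by the genotype in the labels. The authors deposited estimated counts per gene symbol without normalization. The submitters' processing notes name mm10, Bowtie2, RSEM 1.3.1 and DESeq2 1.4.5, whereas the study's methods name HISAT2 and reads of 50 bases, so the aligner is uncertain. RSEM divides reads that fit several genes, which blurs near-identical copies. Whether replicates were separate mice or cultures was not given in the sources used here, so p-values measure the spread between these samples, which may be technical. Depth was 20778077 to 20888041 counts, and a floor of 3 counts was 0.144 CPM, for counting error only.

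Counts were rounded to whole numbers, filtered with filterByExpr, normalized by TMM and compared by genotype with edgeR 4.0.16 (glmQLFit and glmQLFTest, two-sided) in R 4.3.3, with Benjamini-Hochberg adjustment. The SE is the log2 fold change divided by the square root of F. CPM used TMM library sizes and log2 CPM a prior count of 2 in the SDs. RPKM used GENCODE M21 exon lengths. On simulated data the test recovered 93% of 200 genes given a log2 change of 0.5 among 13535, with 17 false calls. Changes as small as the median of the members were not simulated. Values in every sample are given for called members, and of the pathway lists for the receptors and up to 5 called genes with the largest change and a mean of at least 50 counts. A result for 1 gene is not reported here. Other genes were named after their values were seen. The members and lists were chosen with earlier results of these data known. Alternatives were DESeq2's size factors, upper-quartile normalization, no filter, at least 10 counts in every sample, DESeq2 1.42.0, limma-voom (limma 3.58.1), a replicate block, each sample left out, an adjusted p under 0.01 and, added after the data were seen, near-identical genes summed and WT replicates 2 and 4 left out.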

Additional observations from a re-analysis of the deposited data

Results flagged for a closer look

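In 12 of 118 groups of 4 samples, 1 sample stood apart from the other 3, with a gap to its nearest neighbor that took more of the whole range than Dixon's 95% limit for 4 samples allows, where chance gives 5.9 such groups. The genes share libraries, so the groups are not independent. WT replicate 4 was the low sample for Oas1a (0.899 of the range), Irf7 (0.913), Ifi35 (0.913) and Igtp (0.849). WT replicate 2 was the high sample for Parp9 (0.854) and Trim25 (0.911). Among Hint1-/- samples, replicate 4 was low for Oas1a (0.944) and Ifi35 (0.861), and replicate 1 was low for Trim25 (0.863), Ifngr2 (0.834) and Gm12250 (0.868). Hint1-/- replicate 2 was high for Epsti1 (0.884).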

How the results depend on the processing

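No member was called higher under any of the 17 other settings or at an adjusted p under 0.01. Tgtp1 was tested under 16 of the 17 settings, since summing near-identical genes merged it into Tgtp2. Of the 25 called members, 20 kept their call, at an adjusted p under 0.05, under each of the 17 settings that tested them. Ifit1 (8 settings), Irgm2 (8), Gbp5 (6), Iigp1 (5) and Ifit2 (DESeq2 alone, adjusted p = 0.0962) lost it, and DESeq2 also lost Ifit1 (0.184) and Gbp5 (0.146). At an adjusted p under 0.01 in the main test, these 5 and Dhx58 (adjusted p = 0.0131 by edgeR) were not called. The count of type I genes called lower ran from 15 to 22 over all settings, the adjusted p under 0.01 included. It ran from 17 to 22 with 1 sample left out. The count of GTPases called lower was 4 at an adjusted p under 0.01 and ran from 4 to 9 with 1 sample left out. It was 4 without WT replicate 1, WT replicate 2, or Hint1-/- replicate 1, 3 or 4, and 9 without WT replicate 4. The median log2 fold change of type I genes ran from −0.202, without WT replicate 4, to −0.14 with 1 sample left out, and that of GTPases from −0.198, without WT replicate 4, to −0.0974, without WT replicate 2. Members past a fold change of 1.5 numbered 0 with near-identical genes summed. With samples left out, 4 members that were not called crossed 0. The log2 fold change of Irf9 ran from −0.0342 to 0.0104, that of Stat2 from −0.0365 to 0.0094, that of Bst2 from −0.0896 to 0.0117 and that of Gbp6 from −0.1046 to 0.0220. The cause was not tested.

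The replicate numbers did not pair the samples, since deviations of same-numbered samples correlated at −0.045, 0.0814, 0.00875 and 0.0230. With the replicate block 19 type I genes and 7 GTPases were called lower, 0 members lost their call and 1 gained one, and over all genes 1622 were higher and 1460 lower, against 1522 and 1385 without it. Mean counts of the members ran from 335.5 to 20143.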
